A study of Mus musculus with 3 samples.

Results

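The proteasome genes were followed in donor T cells taken from mice that had been given the calcineurin inhibitor cyclosporine (CSA) after BM transplantation. Members were chosen by gene symbol, as genes named Psm followed by a letter from a to g and a number. The rule matched 50 of the 18029 genes in the count table. Psmc3ip, a gene of meiotic recombination, shares the name only and was kept apart, which left 49 proteasome genes. These were 8 core alpha subunits, 8 constitutive core beta subunits, 3 immunoproteasome subunits, 6 base ATPases, 14 regulatory non-ATPase genes (all those named Psmd), 5 activators and 5 inhibitor or chaperone genes (named Psmf or Psmg).

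Irradiated B6D2F1 recipients had received B6 BM, B6 T cells and a small number of TEa TCR transgenic T cells. They were treated daily from day 0 to day 6 with saline, with CSA at 5 mg/kg or with CSA at 50 mg/kg. Spleens were taken on day 7 from 6 mice per group, pooled by 2 into 3 hashtagged pools per group. Donor CD4+ and CD8+ T cells were sorted, combined and run as 1 droplet capture per group with 5′ chemistry, so capture and treatment cannot be told apart. The labels give no age for the mice. The 9 pools are the replicates, and since a pool mixes 2 mice and shares its capture with the other pools of its group, the p-values measure only the spread between pools within captures. TEa cells were left out. TEa cells carry a receptor for a recipient peptide, and every group received them.

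The proteasome is the protease that removes ubiquitin-tagged proteins from the cytosol and nucleus and supplies most peptides shown on MHC class I. Its core is a stack of rings, with alpha subunits forming the outer gates and beta subunits holding the proteolytic sites, and the regulatory particle adds ATPases that unfold substrates and non-ATPase subunits that bind and trim ubiquitin. IFN-γ raises Psmb8, Psmb9 and Psmb10, which replace the catalytic subunits Psmb5, Psmb6 and Psmb7 in newly built cores, and also the activator genes Psme1 and Psme2, and lymphocytes carry much of this immunoproteasome form at rest.

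Psmb8 and Psmb9 lie in the MHC on mouse chromosome 17. In mm10 with GENCODE vM21 coordinates, Psmb8 (ENSMUSG00000024338) spans chr17:34197721-34201454, plus strand, and Psmb9 (ENSMUSG00000096727) spans chr17:34181987-34187764, minus strand. Psmb10 (ENSMUSG00000031897) spans chr8:105935735-105938444, minus strand. The promoter windows in RefSeq (GRCm38.p6) run from 250 bases before the RefSeq gene start to 50 bases after it, and 41 of the 49 proteasome genes matched an entry. This start can differ from that of the GENCODE span, and the Psmb9 window lies wholly inside its span. The windows of 3 members are shown because the values described further on set these genes against each other: Psmb9 with its neighbor Tap1, the constitutive subunit Psmb5, and the activator Psme1. Each reads 5′ to 3′ on the strand of its gene, in lower case, with any motif match in capitals.
Psmb9, chr17:34187281-34187580, minus strand: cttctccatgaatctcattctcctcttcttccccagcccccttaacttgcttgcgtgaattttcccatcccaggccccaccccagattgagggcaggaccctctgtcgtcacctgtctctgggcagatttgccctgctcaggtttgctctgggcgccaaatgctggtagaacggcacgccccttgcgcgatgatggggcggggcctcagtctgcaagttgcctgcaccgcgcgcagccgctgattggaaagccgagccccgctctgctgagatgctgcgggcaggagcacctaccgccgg
Psmb5, chr14:54617946-54618245, minus strand: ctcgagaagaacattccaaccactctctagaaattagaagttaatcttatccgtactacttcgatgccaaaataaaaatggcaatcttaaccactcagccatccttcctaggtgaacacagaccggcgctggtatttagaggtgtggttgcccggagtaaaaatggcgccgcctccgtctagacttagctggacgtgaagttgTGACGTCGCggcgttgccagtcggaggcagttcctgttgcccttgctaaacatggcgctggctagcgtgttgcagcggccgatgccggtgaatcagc
Psme1, chr14:55578244-55578543, plus strand: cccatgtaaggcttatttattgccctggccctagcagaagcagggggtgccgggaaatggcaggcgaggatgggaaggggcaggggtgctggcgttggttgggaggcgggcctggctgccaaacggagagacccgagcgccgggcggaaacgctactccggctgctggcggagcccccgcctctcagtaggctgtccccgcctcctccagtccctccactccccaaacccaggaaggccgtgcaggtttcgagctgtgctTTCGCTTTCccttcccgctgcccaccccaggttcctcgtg
The Psmb9 window lies head to head with that of Tap1, which encodes a chain of the MHC class I peptide transporter and reads from the other strand, and the windows share 275 bases. The capitals in the Psmb5 window mark the antioxidant response element core TGACNNNGC, the kind of site read by the factor that Nfe2l1 encodes, and the match starts 47 bases before the gene start. In the Psme1 window they mark the interferon-stimulated response element core GAAANNGAA, which lies on the opposite strand and starts 10 bases after the gene start. Neither set of letters was in the Psmb9 window. Both motifs were searched on both strands. The interferon core was in 7 of the 41 windows of proteasome genes (17.1%, against 9.76% of 27025 windows of all genes), in Psmb3, Psmb4, Psmc2, Psmd4, Psmd9, Psme1 and Psmg4. The antioxidant core was in 6 of 41 (14.6%, against 14.0%), in Psmb5, Psmb6, Psmc6, Psmd12, Psmd9 and Psme4.

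The table held 21204 cells, of which 10371 were CD4+ (280 of them TEa cells) and 10833 were CD8+. A pool gave between 875 and 1479 CD4+ cells and between 692 and 1615 CD8+ cells. Depth moved with dose: the median number of unique molecular identifiers (UMIs, which count captured mRNA molecules) per CD4+ cell was 3097, 4396 and 5979.5 in the saline, low dose and high dose groups, and per CD8+ cell 4108, 6121.5 and 7183. Captures shared 218 cell barcodes. Cells with a strong second hashtag made up 4.10% of CD4+ and 6.06% of CD8+ cells, from 0% in pool 1 of both CSA groups to 10.6% of CD4+ cells in CSA 50 mg/kg pool 3 and 15.7% of CD8+ cells in CSA 5 mg/kg pool 3, and without them 42 members were higher in CD4+ and 41 in CD8+ T cells at 50 mg/kg, where all cells gave 41 and 40. All 5 T cell markers held UMIs in both lineages, while Cd4 was at 0 in the cells labelled CD8+ and Cd8a at 0 in those labelled CD4+. Labels drawn from these same counts would give such zeros, so the zeros do not measure purity. Cd8b1, the other CD8 chain, was not at 0 in the CD4+ cells: it held between 141 and 153 CPM (UMIs on the counts-per-million scale) in the saline pools and between 20.8 and 25.8 at 50 mg/kg. Markers of other cells moved with dose too. The 6 B cell markers summed to between 160 and 170.4 CPM over the CD8+ saline pools and between 545 and 672 over the CD8+ pools at 50 mg/kg (5 of 6 with UMIs), and from between 174 and 189 to between 257 and 295 in CD4+ T cells (6 of 6 with UMIs). The 5 erythroid markers went from between 3.89 and 17.6 to between 23.7 and 48.1 in CD8+ and from between 3.21 and 14.5 to between 27.7 and 36.6 in CD4+ T cells, and the 7 myeloid markers from between 271 and 310.5 to between 290.3 and 321 in CD8+ and from between 253 and 267 to between 264 and 300.3 in CD4+. The 4 dissociation genes went from between 66.8 and 79.5 to between 33.1 and 39.4 in CD8+ and from between 118 and 137 to between 75.8 and 90.1 in CD4+ T cells. The part of these cells and genes in the changes was not tested.

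With saline, Psmb8 was the most abundant proteasome mRNA in both lineages, at 858 ± 16.5 CPM in CD4+ and 853 ± 20.9 in CD8+ T cells (SD, n = 3 pools, levels scaled by library size). A UMI stands for 1 captured molecule whatever its length, so these levels were compared between genes without dividing by length. Fewer cells carrying an mRNA and less of it per cell cannot be told apart in these sums over a pool. Psme2 came next, at 694 ± 9.80 and 566 ± 16.7. Ranks 3 to 6 held Psme1, Psmb3, Psmb1 and Psmb9 in both lineages, between 372 and 496 CPM, and Psme1 (465 ± 15.7) and Psmb3 (465 ± 10.2) in CD8+ T cells did not differ beyond their spread. The chaperone Psmg3 was lowest among the genes tested, at 11.3 ± 0.250 and 12.8 ± 1.95. Psmb11, the thymic epithelial form of the catalytic subunit, had 1 UMI over all pools in each lineage, and Psma8, the testis form of an alpha subunit, had 8 in CD4+ and 3 in CD8+ T cells. Both fell under the count filter, so 47 of the 49 members were tested in each lineage, with between 46 and 10033 UMIs per pool.

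CSA treatment was accompanied by higher levels of most proteasome mRNAs relative to the average gene. UMI counts were summed per pool, scaled by TMM (which sets the middle of the gene distribution equal between pools), and tested in edgeR over all genes with an adjusted p threshold of 0.05. Of the 47 members, 41 were higher and 1 lower in CD4+ T cells at 50 mg/kg, against 34.7% and 35.8% of all genes tested. At 5 mg/kg 40 were higher and 1 lower, against 26.1% and 25.6%. CD8+ T cells had 40 higher and 2 lower at 5 mg/kg (29.9% and 30.3% of all genes) and 40 higher and 2 lower at 50 mg/kg (37.1% and 36.9%). The median log2 change of the members was 0.43 at 5 mg/kg and 0.52 at 50 mg/kg in CD4+, and 0.49 and 0.57 in CD8+ T cells, where the median of all genes tested lay between -0.012 and 0.0010. The saline and 50 mg/kg pools did not overlap for 42 of 47 members in CD4+ (41 above, 1 below, against 35.7% and 37.0% of all genes) and for 43 in CD8+ T cells (40 above, 3 below, against 37.5% and 38.3%). Both doses were compared with the same saline pools. Among cells of 4000 to 8000 UMIs, which takes out much of the depth difference, 34 members were higher and 3 lower in CD4+ T cells at 50 mg/kg (30.7% and 31.3% of all genes) and 36 higher and 3 lower in CD8+ (35.2% and 34.8%).

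**Figure D1:**
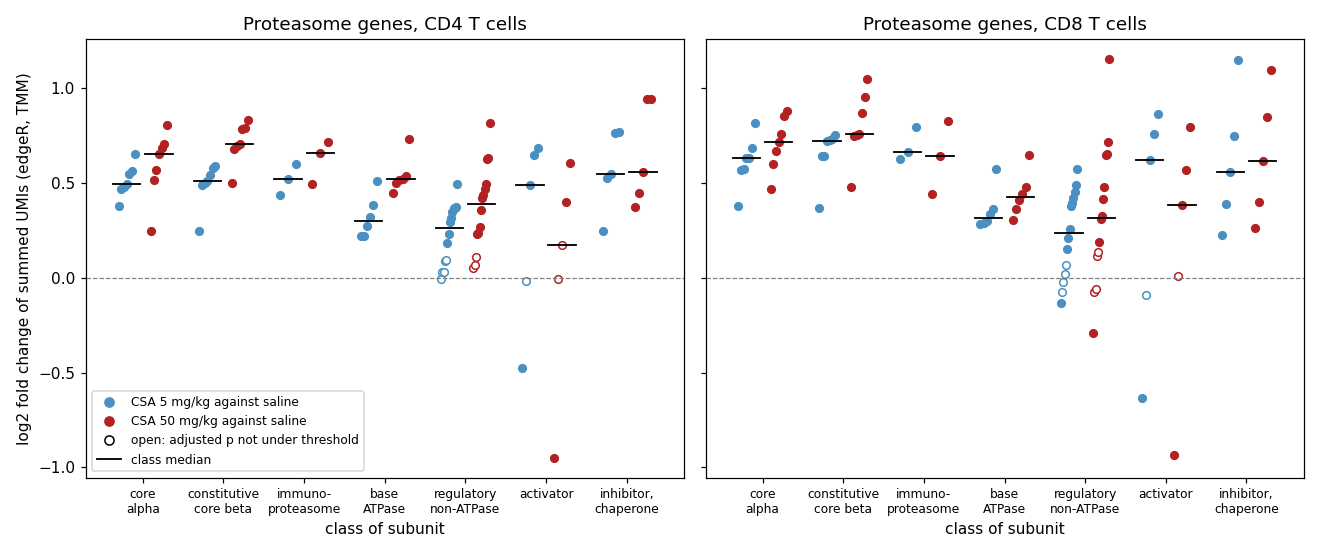
Log2 fold change against saline (vertical axis) of each of the 47 proteasome genes tested, by class (horizontal axis), in CD4+ (left) and CD8+ T cells (right); blue is CSA 5 mg/kg, red CSA 50 mg/kg, filled points had an adjusted p under 0.05 and lines are class medians. The core, immunoproteasome, ATPase and chaperone genes all lie above 0 at both doses, while regulatory non-ATPases and activators reach below it.

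These counts moved with the scaling and with transcript length. Over all genes with an annotated length (99.3%), the log2 change at 50 mg/kg fell with length, with a Spearman rho of -0.59 over 10491 genes in CD4+ T cells and -0.60 in CD8+. Genes share their libraries and depth, so these are descriptions. Proteasome transcripts were short, with a median of 1430 bases against 2771 and 2746.5 over the genes tested, and among the 47 members rho was -0.46 and -0.56. Genes of at most 1000 bases had a median log2 change of 0.73 in CD4+ and 0.92 in CD8+ T cells, and genes over 5000 bases had -0.74 and -0.79. When a smooth curve of change on length was taken out for each pool, an alternative chosen after seeing these data, 22 members were higher and 6 lower in CD4+ T cells at 50 mg/kg (29.3% and 27.6% of all genes) and 16 higher and 13 lower in CD8+ (31.4% and 30.7%), with medians of 0.12 and 0.017. At 5 mg/kg the same offsets gave 16 higher and 2 lower in CD4+ (15.8% and 13.6%) and 18 higher and 5 lower in CD8+ T cells (20.6% and 19.8%). Scaling by library size alone shifted the median gene by -0.45 in CD4+ and -0.53 in CD8+ T cells at 50 mg/kg (-0.37 and -0.43 at 5 mg/kg). It left 20 members higher and 10 lower in CD4+ at 50 mg/kg (15.1% and 59.0% of all genes), 20 and 15 in CD8+ (15.6% and 62.7%), 19 and 9 in CD4+ at 5 mg/kg (8.76% and 54.1%) and 22 and 13 in CD8+ (10.9% and 57.8%). As a share of all UMIs, the 49 proteasome genes held 0.913, 0.905 and 0.908% under saline, 0.954, 0.997 and 0.993% under 5 mg/kg and 1.03, 0.999 and 0.978% under 50 mg/kg in CD4+ T cells. In CD8+ T cells they held 0.905, 0.888 and 0.908% under saline, 0.987, 1.02 and 0.989% under 5 mg/kg and 0.985, 0.977 and 0.942% under 50 mg/kg. The saline pools were the lowest in both lineages.

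**Figure D2:**
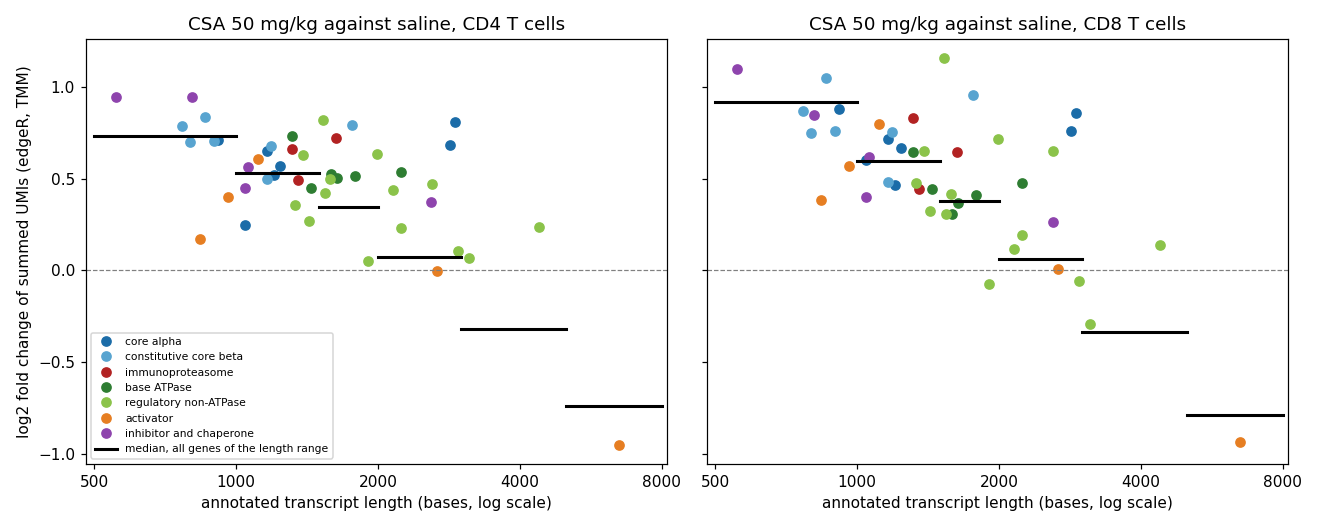
Log2 fold change at CSA 50 mg/kg against saline (vertical axis) of the 47 proteasome genes against annotated transcript length in bases (horizontal axis, log scale), colored by class, in CD4+ (left) and CD8+ T cells (right); black lines are the medians of all genes in that length range, the last drawn to the edge of the plot. The members fall with length, and Psmd8, Psmb1, Psmb2, Psmf1, Psma2 and Psma3 are among those above the line in both lineages. Members of 2001 to 3000 bases had a median of 0.44 in CD4+ and 0.26 in CD8+, against 0.075 and 0.059 for all genes. For Psma2 and Psma3 shorter coding transcripts are also annotated, so their place along the axis is uncertain.

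In each lineage 12 of 47 members were higher at 50 mg/kg under all 3 scalings, against 12.3% of all genes in CD4+ and 12.7% in CD8+ T cells. In CD4+ T cells they were Psma2, Psma3, Psma4, Psmb1, Psmb2, Psmb4, Psmb8, Psmb10, Psmc5, Psmd6, Psmd8 and Psmd13, and in CD8+ Psma2, Psma3, Psma7, Psmb1, Psmb2, Psmb4, Psmb8, Psmb10, Psmd6, Psmd8, Psmd13 and Psme1. For Psma2 and Psma3 the length used is uncertain, since shorter coding transcripts are also annotated. Psme4 was lower under all 3 in both lineages, and Psmd1 was in CD8+ T cells (21.8% of all genes in CD4+ and 23.7% in CD8+ were lower). The difference between lineages for these lists as wholes was not tested.

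In what follows, levels of single genes are TMM-scaled CPM in pools 1, 2 and 3 of each group, and changes are log2 fold changes with their SE. Among the core alpha subunits, which form the gate of the core particle, 7 of 7 tested rose at both doses in both lineages under TMM scaling, while at 50 mg/kg library scaling left 5 higher and 1 lower in CD4+ and 5 higher in CD8+ T cells, and length offsets left 3 higher and 1 lower in CD4+ and 3 higher and 2 lower in CD8+. Psma2 had the highest change in CD4+ T cells, with 244, 247 and 264 CPM under saline, 350.3, 358 and 393 under 5 mg/kg and 439.6, 441 and 441 under 50 mg/kg. The groups did not overlap, and the change at 50 mg/kg was 0.81 ± 0.045 (SE, adjusted p = 1.08e-12). CD8+ T cells gave 236, 230.4 and 246 CPM under saline, 386, 388 and 371 under 5 mg/kg and 450.2, 419 and 420.2 under 50 mg/kg, a change of 0.86 ± 0.042 (SE, adjusted p = 3.03e-12). With length offsets it was 0.88 and 0.95, but the length used, 2911 bases, is that of 1 principal transcript and the annotation also lists shorter coding ones, as it does for Psma3. Psma7 had the highest alpha change in CD8+ T cells, with 234, 225 and 224 CPM under saline, 407, 401 and 393 under 5 mg/kg and 419.6, 415 and 419 under 50 mg/kg. Its change was 0.88 ± 0.037 (SE, adjusted p = 3.68e-13), and its CD4+ change was 0.71. Psma1 had the smallest in CD8+, with 142, 139.7 and 144 CPM under saline, 186, 187 and 181 under 5 mg/kg and 203, 192 and 194 under 50 mg/kg and a change of 0.47 ± 0.042 (SE, adjusted p = 1.33e-08). Its direction turned under library scaling (-0.063, adjusted p = 0.171) and with length offsets (-0.15, adjusted p = 0.00468).

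Psma6 went another way with dose in CD4+ T cells. It held 179, 183 and 172 CPM under saline, 259.7, 259 and 270.1 under 5 mg/kg and 219, 216 and 199 under 50 mg/kg. The pools at 5 mg/kg were the highest and the pools at 50 mg/kg lay between them and saline. The change was 0.56 ± 0.047 (SE, adjusted p = 2.82e-09) at 5 mg/kg, 0.25 ± 0.047 (SE, adjusted p = 9.18e-05) at 50 mg/kg, and -0.32 ± 0.047 (SE, adjusted p = 1.26e-05) between the doses, the last of them lower under all 3 scalings. At 50 mg/kg the direction turned under library scaling (-0.19, adjusted p = 0.000904) and with length offsets (-0.34, adjusted p = 3.32e-06). For CD8+ T cells the values were 143, 138 and 146 CPM under saline, 227, 221 and 216 under 5 mg/kg and 213, 208 and 226 under 50 mg/kg, and there the change at 50 mg/kg was 0.60 ± 0.045 (SE, adjusted p = 9.56e-10).

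The constitutive beta subunits rose in 7 of 7 tested under TMM scaling, at both doses and in both lineages, and at 50 mg/kg in 6 under library scaling, while length offsets left 3 higher in CD4+ and 3 higher and 2 lower in CD8+ T cells. Psmb2, a structural beta subunit, had the highest change. It held 173, 166 and 168 CPM under saline, 253, 259 and 246 under 5 mg/kg and 306, 304 and 295 under 50 mg/kg in CD4+ T cells, a change of 0.84 ± 0.042 (SE, adjusted p = 1.71e-13). Its CD8+ values were 149, 146 and 159 CPM under saline, 258, 252 and 240.1 under 5 mg/kg and 327, 310.1 and 300.4 under 50 mg/kg, a change of 1.05 ± 0.047 (SE, adjusted p = 8.12e-13). The 3 groups did not overlap in either lineage, and each step of dose was upward. Psmb1, also structural, changed by 0.79 (adjusted p = 2.60e-13) in CD4+ and 0.96 (adjusted p = 8.36e-14) in CD8+ T cells and stayed higher under all 3 scalings.

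The catalytic subunits of the constitutive core rose less evenly. Psmb5, which carries the chymotrypsin-like site, held 231, 231 and 235 CPM under saline, 309.8, 336 and 330.4 under 5 mg/kg and 391, 381 and 365 under 50 mg/kg in CD4+ T cells. In CD8+ it held 219, 217 and 213 CPM under saline, 336, 346 and 333 under 5 mg/kg and 370.3, 367 and 363 under 50 mg/kg. Its change at 50 mg/kg was 0.71 ± 0.042 (SE, adjusted p = 3.45e-12) and 0.76 ± 0.037 (SE, adjusted p = 2.79e-12), and with length offsets 0.049 (adjusted p = 0.325) and -0.039 (adjusted p = 0.380). Psmb6, the caspase-like subunit, held 184, 169 and 169 CPM under saline, 227, 249 and 262 under 5 mg/kg and 288, 283 and 272 under 50 mg/kg in CD4+ T cells. Levels in CD8+ T cells were 182, 156 and 174 CPM under saline, 267, 293 and 284 under 5 mg/kg and 282, 276 and 299.6 under 50 mg/kg. Psmb6 changed by 0.70 ± 0.051 (SE, adjusted p = 9.95e-11) and 0.75 ± 0.055 (SE, adjusted p = 7.83e-10), and both turned with length offsets (-0.011, adjusted p = 0.865 and -0.12, adjusted p = 0.0466). Psmb7, the trypsin-like subunit, had the smallest change of the class in both lineages, with 87.6, 104 and 100.3 CPM under saline, 104, 123 and 120.1 under 5 mg/kg and 137, 138 and 139.7 under 50 mg/kg. The CD8+ pools held 98.5, 90.2 and 97.8 CPM under saline, 119.8, 128 and 122 under 5 mg/kg and 138, 131 and 131 under 50 mg/kg. The saline pools were below the 50 mg/kg pools in both lineages, by 0.50 ± 0.063 (SE, adjusted p = 4.87e-07) and 0.48 ± 0.050 (SE, adjusted p = 9.12e-08), and length offsets turned both directions (-0.041, adjusted p = 0.597 and -0.16, adjusted p = 0.0106).

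The 3 immunoproteasome subunits rose at both doses in both lineages under TMM scaling, and 2 of them, Psmb8 and Psmb10, at 50 mg/kg under the other scalings. Psmb8, the inducible partner of Psmb5, held 726, 698 and 720.4 CPM under saline, 989, 1029 and 1056 under 5 mg/kg and 1213, 1190.2 and 1127 under 50 mg/kg in CD4+ T cells. The 3 groups did not overlap, and the change was 0.52 ± 0.037 (SE, adjusted p = 1.80e-10) at 5 mg/kg and 0.72 ± 0.037 (SE, adjusted p = 2.55e-13) at 50 mg/kg. The CD8+ level was 683, 669 and 704 CPM under saline, 1072, 1124 and 1062 under 5 mg/kg and 1071, 1114 and 1025 under 50 mg/kg, with changes of 0.66 ± 0.039 (SE, adjusted p = 1.03e-10) and 0.64 ± 0.039 (SE, adjusted p = 6.11e-11). There the 2 dose groups overlapped. Psmb8 stayed higher under library scaling (0.28, adjusted p = 3.07e-07, in CD4+ and 0.11, adjusted p = 0.0159, in CD8+ at 50 mg/kg) and with length offsets (0.36, adjusted p = 3.03e-08 and 0.23, adjusted p = 3.03e-05).

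Psmb10, the partner of Psmb7, held 205, 196 and 208 CPM under saline, 303, 311 and 308 under 5 mg/kg and 349, 309 and 304 under 50 mg/kg in CD4+ T cells. For CD8+ T cells the values were 198, 187 and 209 CPM under saline, 341, 343 and 347 under 5 mg/kg and 364, 373 and 317 under 50 mg/kg. All treated pools were above all saline pools, and the 2 doses overlapped. The change at 50 mg/kg was 0.66 ± 0.049 (SE, adjusted p = 1.38e-10) in CD4+ and 0.83 ± 0.056 (SE, adjusted p = 2.56e-10) in CD8+ T cells, and at 5 mg/kg 0.60 (adjusted p = 2.85e-09) and 0.80 (adjusted p = 1.27e-09), higher under all 3 scalings at each.

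Psmb9, the partner of Psmb6, rose less. It held 302, 325 and 311 CPM under saline, 421, 429 and 421 under 5 mg/kg and 489, 444 and 392 under 50 mg/kg in CD4+ T cells, a change of 0.49 ± 0.056 (SE, adjusted p = 1.02e-07) at 50 mg/kg. In CD8+ it held 318, 309.5 and 309 CPM under saline, 481, 491 and 474 under 5 mg/kg and 452, 439.7 and 385 under 50 mg/kg. The CD8+ pools at 50 mg/kg lay above saline and below those at 5 mg/kg, with a change of 0.62 ± 0.050 (SE, adjusted p = 6.25e-09) at 5 mg/kg, 0.44 ± 0.049 (SE, adjusted p = 2.32e-07) at 50 mg/kg and -0.18 ± 0.050 (SE, adjusted p = 0.00744) between the doses. The last was lower under all 3 scalings, while the change against saline at 50 mg/kg missed the threshold in CD4+ and turned in CD8+ under library scaling (0.056, adjusted p = 0.383 and -0.085, adjusted p = 0.137) and with length offsets (0.031, adjusted p = 0.673 and -0.091, adjusted p = 0.125).

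**Figure D3:**
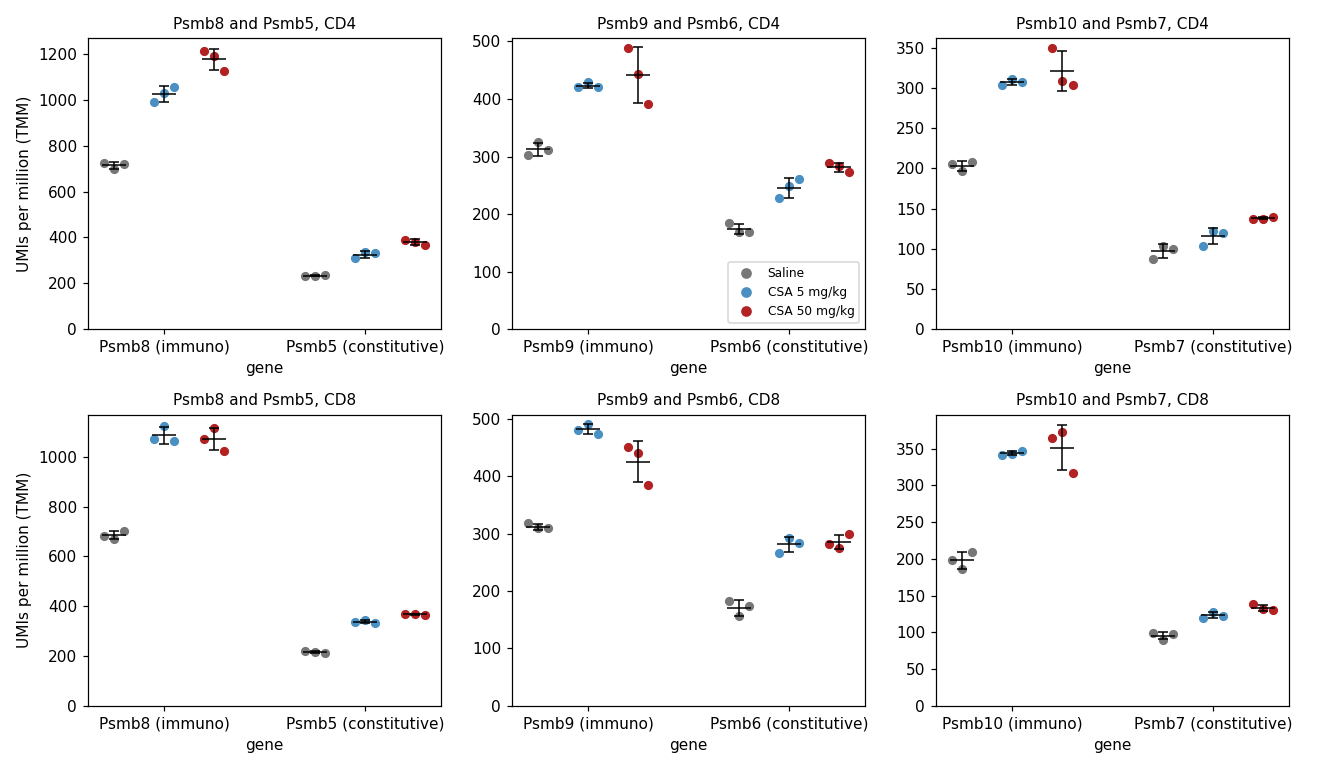
TMM-scaled CPM (vertical axes, from 0) of each immunoproteasome subunit beside the constitutive subunit it replaces, in CD4+ (top) and CD8+ T cells (bottom). Points are pools (gray saline, blue CSA 5 mg/kg, red CSA 50 mg/kg) and bars mean ± SD of 3 pools; both members of each pair lie above their saline pools at 50 mg/kg, and Psmb9 in CD8+ T cells is lower at 50 than at 5 mg/kg.

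Ratios within a pool do not depend on scaling and were taken as a description, with no test. The UMIs of Psmb8 over those of Psmb5 were 3.15, 3.03 and 3.07 under saline, 3.19, 3.06 and 3.20 under 5 mg/kg and 3.11, 3.12 and 3.09 under 50 mg/kg in CD4+ T cells, where the groups overlapped. In CD8+ T cells the ratio was 3.11, 3.09 and 3.30 under saline, 3.19, 3.24 and 3.19 under 5 mg/kg and 2.89, 3.03 and 2.82 under 50 mg/kg, with the 50 mg/kg pools lowest. Psmb10 over Psmb7 was 2.01, 2.07 and 2.13 under saline, 2.85, 2.69 and 2.83 under 5 mg/kg and 2.64, 2.84 and 2.42 under 50 mg/kg in CD8+, so all treated pools exceeded all saline pools. In CD4+ T cells Psmb10 over Psmb7 was 2.34, 1.89 and 2.07 under saline, 2.92, 2.53 and 2.56 under 5 mg/kg and 2.55, 2.25 and 2.18 under 50 mg/kg, and the saline and 50 mg/kg pools overlapped. Psmb9 over Psmb6 went downward on average, with 1.64, 1.93 and 1.85 under saline, 1.85, 1.72 and 1.61 under 5 mg/kg and 1.70, 1.57 and 1.44 under 50 mg/kg in CD4+ T cells. CD8+ T cells gave 1.75, 1.99 and 1.78 under saline, 1.80, 1.67 and 1.67 under 5 mg/kg and 1.60, 1.59 and 1.29 under 50 mg/kg, and there the 50 mg/kg pools were below the saline pools without overlap, as they were not in CD4+. The 3 pairs thus did not move in 1 direction. Transcript lengths within a pair were 1628 and 899 bases for Psmb8 and Psmb5, 1352 and 798 for Psmb9 and Psmb6, and 1311 and 1160 for Psmb10 and Psmb7.

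Psmb9 and Tap1, which share a promoter region, moved apart. Tap1 held 284, 277 and 283 CPM under saline, 282, 296 and 269.6 under 5 mg/kg and 259, 235 and 219 under 50 mg/kg in CD4+ T cells. Tap1 over Psmb9 was 0.941, 0.853 and 0.908 under saline, 0.671, 0.690 and 0.641 under 5 mg/kg and 0.529, 0.529 and 0.558 under 50 mg/kg in CD4+ T cells. In CD8+ it was 0.866, 0.842 and 0.897 under saline, 0.543, 0.542 and 0.559 under 5 mg/kg and 0.466, 0.450 and 0.466 under 50 mg/kg. No group overlapped another in either lineage, and the ratio was lower at each step of dose. Tap1 itself changed by -0.25 ± 0.052 (SE, adjusted p = 0.000265) in CD4+ and -0.47 ± 0.051 (SE, adjusted p = 1.48e-07) in CD8+ T cells at 50 mg/kg, and its change at 5 mg/kg did not pass the test (0.0042, adjusted p = 0.956 and -0.039, adjusted p = 0.533). These changes of Tap1 are under TMM scaling, and the part of transcript length in the ratio was not tested.

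The base ATPases, the ring that unfolds substrates, rose in 6 of 6 at both doses in both lineages under TMM scaling, by a median of 0.52 in CD4+ and 0.43 in CD8+ T cells at 50 mg/kg. Library scaling left 1 higher in CD4+ and 1 higher and 3 lower in CD8+, and length offsets 5 higher in CD4+ and 1 higher and 1 lower in CD8+ T cells. Psmc5 was the highest, with 90.3, 90.6 and 94.2 CPM under saline, 124, 128 and 139 under 5 mg/kg and 149.6, 158 and 149.9 under 50 mg/kg in CD4+ T cells. Its CD8+ values were 83.7, 84.2 and 88.5 CPM under saline, 129, 124 and 128 under 5 mg/kg and 139, 136 and 127 under 50 mg/kg. The changes were 0.73 ± 0.053 (SE, adjusted p = 8.94e-11) and 0.65 ± 0.050 (SE, adjusted p = 1.66e-09). The smallest ATPase change in CD4+ T cells was that of Psmc4, with 118, 119 and 115 CPM under saline, 135, 150.0 and 140.0 under 5 mg/kg and 157, 163 and 158 under 50 mg/kg and 0.45 ± 0.049 (SE, adjusted p = 5.98e-08). In CD8+ it was that of Psmc1, with 95.7, 97.0 and 90.9 CPM under saline, 116, 112 and 119.8 under 5 mg/kg and 114, 114 and 122 under 50 mg/kg and 0.31 ± 0.050 (SE, adjusted p = 2.65e-05). Psmc1 in CD8+ turned under library scaling (-0.23, adjusted p = 0.000489) and with length offsets (-0.12, adjusted p = 0.0462).

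The genes named Psmd, counted here as regulatory non-ATPases, were the most mixed class. In CD4+ T cells 9 of 14 rose at 5 mg/kg and 11 at 50 mg/kg while the others did not pass, and in CD8+ 9 rose and 1 fell at each dose. At 50 mg/kg library scaling turned the balance to 3 higher and 6 lower in CD4+ and 3 and 9 in CD8+ T cells, and length offsets gave 8 higher and 2 lower in CD4+ and 5 and 4 in CD8+. Psmd8, a lid subunit, had the largest rise of the class in both lineages. It held 190.4, 183 and 186 CPM under saline, 250.2, 269.8 and 267 under 5 mg/kg and 329, 317 and 339 under 50 mg/kg in CD4+ T cells and changed by 0.82 ± 0.044 (SE, adjusted p = 5.34e-13). The CD8+ level was 185, 185 and 186 CPM under saline, 261, 289 and 277 under 5 mg/kg and 413, 398 and 426 under 50 mg/kg and changed by 1.16 ± 0.043 (SE, adjusted p = 7.21e-14). The groups did not overlap, each dose was above the last, and all 3 scalings gave a higher level at 50 than at 5 mg/kg and than with saline. Psmd12, another lid subunit, did not pass the test in CD4+, with 120.4, 116 and 118 CPM under saline, 118, 120.4 and 115 under 5 mg/kg and 126, 119 and 122 under 50 mg/kg and 0.050 ± 0.049 (SE, adjusted p = 0.370). It was lower under library scaling (-0.39, adjusted p = 4.13e-07) and with length offsets (-0.22, adjusted p = 0.000598). Psmd1, a scaffold of the base, fell in CD8+ T cells, with 104, 106 and 104 CPM under saline, 98.4, 98.4 and 91.1 under 5 mg/kg and 90.8, 79.8 and 86.1 under 50 mg/kg and -0.29 ± 0.054 (SE, adjusted p = 9.48e-05). In CD4+ it held 86.1, 88.0 and 85.2 CPM under saline, 94.2, 90.6 and 91.1 under 5 mg/kg and 101, 93.1 and 79.0 under 50 mg/kg, and 0.068 ± 0.070 (SE, adjusted p = 0.389) did not pass the test. The ubiquitin receptor Psmd4 changed by 0.36 (adjusted p = 1.21e-07) and 0.48 (adjusted p = 1.04e-08), and the deubiquitinase Psmd14 by 0.42 (adjusted p = 1.20e-07) and 0.31 (adjusted p = 3.72e-06). Library scaling turned both genes below 0 in both lineages (-0.083, adjusted p = 0.0718 and -0.052, adjusted p = 0.255, for Psmd4, -0.018, adjusted p = 0.743 and -0.22, adjusted p = 0.000131, for Psmd14), and length offsets turned them too, except Psmd14 in CD4+ (0.027, adjusted p = 0.654).

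The activators split by the cap they form. Psme1 and Psme2 encode the subunits of the IFN-inducible ring that opens the core without ATP. Psme1 held 432, 397 and 412 CPM under saline, 644, 669.6 and 679 under 5 mg/kg and 668, 618 and 601 under 50 mg/kg in CD4+ T cells. Levels in CD8+ T cells were 380.2, 358 and 381 CPM under saline, 688, 680.0 and 669 under 5 mg/kg and 674, 671 and 602 under 50 mg/kg. The treated pools were above saline at both doses, by 0.61 ± 0.043 (SE, adjusted p = 6.14e-11) in CD4+ and 0.80 ± 0.045 (SE, adjusted p = 1.88e-11) in CD8+ T cells at 50 mg/kg. Psme2 held 582, 585 and 568 CPM under saline, 841, 927 and 949 under 5 mg/kg and 825, 735 and 732 under 50 mg/kg in CD4+ T cells. In CD8+ it held 453, 442 and 469 CPM under saline, 771, 788 and 754 under 5 mg/kg and 719, 702 and 608 under 50 mg/kg. Psme2 peaked at 5 mg/kg in both lineages. Its change was 0.65 ± 0.048 (SE, adjusted p = 3.04e-10) and 0.76 ± 0.052 (SE, adjusted p = 6.99e-10) at 5 mg/kg and 0.40 ± 0.047 (SE, adjusted p = 1.75e-07) and 0.57 ± 0.051 (SE, adjusted p = 1.44e-08) at 50 mg/kg, and between the doses -0.25 ± 0.047 (SE, adjusted p = 0.000217) and -0.19 ± 0.051 (SE, adjusted p = 0.00650), lower under all 3 scalings. With length offsets Psme2 was lower than saline at 50 mg/kg (-0.23, adjusted p = 0.000279 and -0.19, adjusted p = 0.00583). Psme2b is a close copy of Psme2 on chromosome 11, so reads could be shared between them and its values are uncertain.

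Psme4, which encodes a large single-chain cap, was the only activator to fall against saline under TMM scaling. It held 50.9, 51.9 and 47.6 CPM under saline, 37.2, 36.6 and 34.6 under 5 mg/kg and 26.5, 25.2 and 26.1 under 50 mg/kg in CD4+ T cells. The CD8+ pools held 52.0, 55.6 and 50.3 CPM under saline, 36.2, 33.5 and 32.9 under 5 mg/kg and 27.5, 29.1 and 26.3 under 50 mg/kg. The groups did not overlap in either lineage, and each dose was below the last. Its change was -0.95 ± 0.077 (SE, adjusted p = 5.08e-10) and -0.94 ± 0.072 (SE, adjusted p = 1.58e-09). Psme4 also had the longest transcript of the members, 6491 bases, and with length offsets its change was -0.28 (adjusted p = 0.00368) and -0.21 (adjusted p = 0.0187). Psme3, the nuclear activator, did not pass the test at either dose (-0.0055, adjusted p = 0.940 and 0.0074, adjusted p = 0.921, at 50 mg/kg).

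The inhibitor Psmf1 and the assembly chaperones named Psmg rose in 5 of 5 at both doses in both lineages under TMM scaling, against 2 higher in CD4+ and 2 higher and 1 lower in CD8+ under library scaling at 50 mg/kg, and 1 higher in CD4+ and 1 higher and 1 lower in CD8+ with length offsets. Psmg4, a chaperone of the alpha ring, was the highest, with 41.7, 40.6 and 42.7 CPM under saline, 62.5, 78.9 and 71.5 under 5 mg/kg and 84.2, 77.6 and 78.8 under 50 mg/kg in CD4+ T cells and 0.94 ± 0.076 (SE, adjusted p = 4.42e-10). The CD8+ level was 37.3, 34.1 and 39.4 CPM under saline, 76.4, 92.6 and 76.3 under 5 mg/kg and 84.7, 76.9 and 75.9 under 50 mg/kg, a change of 1.10 ± 0.078 (SE, adjusted p = 5.33e-10). Psmg4 also had the shortest annotated transcript, 555 bases, and with length offsets the change was 0.13 (adjusted p = 0.136) and 0.060 (adjusted p = 0.535). Psmf1, an inhibitor of the core, rose least, with 43.6, 41.8 and 39.1 CPM under saline, 48.5, 50.8 and 48.1 under 5 mg/kg and 52.9, 54.2 and 53.6 under 50 mg/kg in CD4+ T cells and 0.37 ± 0.069 (SE, adjusted p = 6.29e-05). For CD8+ T cells the values were 44.0, 39.6 and 45.1 CPM under saline, 51.0, 46.9 and 52.0 under 5 mg/kg and 47.9, 51.6 and 54.1 under 50 mg/kg, 0.26 ± 0.070 (SE, adjusted p = 0.00262), and the direction turned under library scaling in both lineages (-0.066, adjusted p = 0.407 and -0.27, adjusted p = 0.00168).

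Between the 2 doses of CSA, 23 members were higher and 4 lower at 50 mg/kg in CD4+ T cells (19.9% and 21.3% of all genes), and 14 were higher and 5 lower in CD8+ (20.0% and 21.0%). Most of these calls were not kept in CD4+ T cells of similar depth. Among cells of 4000 to 8000 UMIs, 4 members were higher in CD4+ and 9 in CD8+, and outside the cycling clusters 15 were higher in CD4+. Shares of all genes for these sets of cells are not given here. The parts of depth and of the smaller number of cells were not tested. Library scaling gave 15 higher and 6 lower in CD4+ (13.5% and 27.2%) and turned the balance in CD8+, with 5 higher and 11 lower (12.1% and 30.6%), and length offsets gave 14 and 7 (18% and 16.7%) and 9 and 7 (18.3% and 17.2%). Under TMM scaling the constitutive beta subunits rose in CD4+ T cells in 7 of 7 and the ATPases in 5 of 6, while 3 of 5 activators fell. There 4 of 7 beta subunits rose in CD8+ T cells, 3 of 5 activators fell and Psmb9 fell. Psmd8 gave the largest upward step, 0.32 ± 0.043 (SE, adjusted p = 4.21e-06) in CD4+ and 0.58 ± 0.043 (SE, adjusted p = 9.84e-09) in CD8+ T cells. The transcript length of the members had little relation to this step (rho of 0.057 and 0.086 over 47 members), where over all genes rho was -0.32 and -0.31.

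Lineages were compared within pools, since each pool gave both. With saline, 11 members were higher and 4 lower in CD8+ than in CD4+ T cells (21.5% and 18.9% of all genes). Psmd1 (0.36 ± 0.056, SE, adjusted p = 1.02e-05), Psmc1 (0.30 ± 0.051, SE, adjusted p = 3.60e-05) and Psmd13 (0.25 ± 0.041, SE, adjusted p = 1.55e-05) of the regulatory particle were highest, and Psme2 (-0.27 ± 0.040, SE, adjusted p = 5.64e-06) and Psma6 (-0.24 ± 0.049, SE, adjusted p = 0.000244) were lower, as were Psme2b and Psmd4. The 3 immunoproteasome genes did not pass this test (0.020, adjusted p = 0.642, for Psmb8, 0.077, adjusted p = 0.0928, for Psmb9 and 0.043, adjusted p = 0.457, for Psmb10). At 5 mg/kg the change against saline differed between lineages for 1 member, Psmg4, which rose more in CD8+ (2.12% of all genes were higher and 1.54% lower), and this call was lost without any one of the saline pools, CSA 5 mg/kg pool 1 or CSA 5 mg/kg pool 2 (adjusted p up to 0.169). At 50 mg/kg it differed for 9, with 5 rising more and 4 less in CD8+ under TMM scaling (9.33% and 10.4% of all genes), 2 and 10 under library scaling (6.96% and 15.5%) and 2 and 6 with length offsets (8.51% and 9.30%). Psma6 (0.33 ± 0.067, SE, adjusted p = 0.000803) and Psmd8 (0.31 ± 0.050, SE, adjusted p = 4.98e-05) had the larger rises in CD8+, and Psmd1 (-0.38 ± 0.080, SE, adjusted p = 0.00116), Psmd3 (-0.35 ± 0.072, SE, adjusted p = 0.000947) and Psmc1 (-0.24 ± 0.069, SE, adjusted p = 0.0143) the smaller, and these 5 passed under all 3 scalings. With each of the 9 pools left out they also passed, apart from Psmc1 without saline pool 2 or CSA 50 mg/kg pool 2 (adjusted p up to 0.0800 in edgeR). In DESeq2 the larger rises of Psma6 and Psmd8 passed, and Psmd1 (adjusted p = 0.0854), Psmd3 (adjusted p = 0.103) and Psmc1 (adjusted p = 0.393) did not. Psmd1, Psmc1 and Psmd3 were among the genes that CD8+ T cells held at a higher level with saline, and Psma6 among those they held at a lower one. Both comparisons use the saline pools.

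A change over all cells of a lineage can be a change in the mix of clusters, so the 50 mg/kg and saline pools were compared within the largest clusters, as the deposited table assigns them. Cluster names are the study's, and CD8+ numbers were matched to them through marker genes. In CD4+ T cells the Cd226hi effector cluster C0 had 36 members higher and 1 lower of 47 (26.6% and 28.2% of all genes), with a median change of 0.55. The Cd226lo effector cluster C1 had 2 higher and 2 lower (9.38% and 10.9%), with a median of 0.044. The Tcf7hi cluster C2 had 5 higher and 2 lower of 46 (11.6% and 11.0%), and the cycling Cd226lo cluster C3 had 4 higher and 3 lower of 47 (8.89% and 8.86%). In CD8+ T cells there were 32 higher and 2 lower of 46 in the Cd226hi effector cluster C0 (28.1% and 30.3%), 5 and 2 of 47 in the Cd226lo cluster C1 (13.4% and 13.6%), and 36 and 3 of 47 in the cycling Cd226lo cluster C2 (27.2% and 27.5%). Library scaling gave 19 higher and 5 lower in CD4+ C0 (12.1% and 49.9%), 11 and 11 in CD8+ C0 (11.7% and 57.8%) and 12 and 6 in CD8+ C2 (10.8% and 47.8%), and length offsets gave 12 and 2 (18.3% and 16.3%), 10 and 8 (21.7% and 20.3%) and 10 and 4 (18.8% and 17.1%). In CD4+ C1, C2 and C3 and CD8+ C1 library scaling gave 0, 0, 0 and 2 higher (5.36%, 6.19%, 4.21% and 5.51%) and 4, 6, 5 and 5 lower (15.0%, 18%, 14.5% and 22.8%), and length offsets gave 1, 2, 1 and 3 higher (7.69%, 10.0%, 6.29% and 9.50%) and 4, 4, 3 and 5 lower (8.77%, 8.60%, 6.30% and 9.88%). Differences between clusters were not tested. On drawn counts the CD4+ C1 fit recovered 22.5% of 200 known changes of 0.5 on the log2 scale, so changes of that size can be missed there. This share is over the 7035 genes tested and does not give the recovery for proteasome genes. At 5 mg/kg the SE in CD4+ C1 and C0 was 0.062 and 0.097 for Psmb8, 0.066 and 0.10 for Psme2, but 0.19 and 0.16 for Psmd1. Median UMIs per cell went 2742, 2328 and 5454.5 in CD4+ C0 over saline, 5 and 50 mg/kg, and 3318, 4486 and 4916 in C1. In CD8+ they went 2842.5, 3283 and 4811.5 in C0, 3415, 4857 and 6254.5 in C1 and 5355, 9513 and 11246 in C2. The relation of change to length was also steeper in C0: genes of at most 1000 bases had a median log2 change of 0.94 and genes over 5000 bases of -0.81 in CD4+ C0, against 0.12 and -0.34 in C1, and 1.05 and -0.80 in CD8+ C0 against 0.25 and -0.41 in C1. The part of depth in the differences between clusters was not tested.

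Within C0 of both lineages the 3 immunoproteasome subunits rose under TMM scaling, and Psmb8 and Psmb10 under all 3. Psmb10 held 215, 191 and 228 CPM under saline, 259, 355 and 369 under 5 mg/kg and 416, 393 and 355 under 50 mg/kg in CD4+ C0, a change of 0.88 ± 0.11 (SE, adjusted p = 2.17e-09). In CD8+ C0 it held 232, 217 and 221 CPM under saline, 474, 343 and 461 under 5 mg/kg and 469, 506 and 458 under 50 mg/kg, a change of 1.11 ± 0.079 (SE, adjusted p = 5.37e-20). Saline and treated pools did not overlap. Psmb8 changed by 0.77 ± 0.093 (SE, adjusted p = 1.06e-09) and 0.91 ± 0.056 (SE, adjusted p = 1.94e-23), and Psme1 by 0.87 ± 0.095 (SE, adjusted p = 5.86e-11) and 1.10 ± 0.064 (SE, adjusted p = 1.02e-24). Psmb9 changed by 0.56 ± 0.10 (SE, adjusted p = 1.16e-05) and 0.60 ± 0.083 (SE, adjusted p = 4.60e-09) and missed the threshold under library scaling (0.091, adjusted p = 0.428 and 0.037, adjusted p = 0.699) and with length offsets (0.046, adjusted p = 0.730 and 0.074, adjusted p = 0.498). Psmb8, Psmb10, Psme1, Psmb1, Psmd8 and Psma2 passed under all 3 scalings in C0 of both lineages.

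At 50 mg/kg the Cd226lo effector cells of C1 went the other way for Psmb9 and Psme2 of the IFN-inducible set. Psmb9 held 389, 413 and 430.5 CPM under saline, 388, 404 and 365 under 5 mg/kg and 402, 330.1 and 303 under 50 mg/kg in CD4+ C1 and changed by -0.26 ± 0.092 (SE, adjusted p = 0.0356). CD8+ C1 held 435, 398 and 376 CPM under saline, 451, 417 and 384 under 5 mg/kg and 349, 328 and 271 under 50 mg/kg, a change of -0.36 ± 0.093 (SE, adjusted p = 0.00304). Only the CD8+ pools did not overlap between saline and 50 mg/kg. Psme2 held 789.6, 779 and 806 CPM under saline, 845, 836 and 788 under 5 mg/kg and 634, 584 and 609 under 50 mg/kg in CD4+ C1, a change of -0.38 ± 0.065 (SE, adjusted p = 1.42e-05). In CD8+ C1 it held 589.7, 683 and 638 CPM under saline, 758, 741 and 719 under 5 mg/kg and 597, 555 and 521 under 50 mg/kg, a change of -0.20 ± 0.072 (SE, adjusted p = 0.0346). Here the CD4+ pools did not overlap between saline and 50 mg/kg, and the CD8+ pools did. Both genes were lower in C1 of both lineages under all 3 scalings. When each of the 9 pools was left out in turn, the call was kept in 9 of 9 fits for Psme2 in CD4+ C1 and for Psmb9 in CD8+ C1. It was kept in 2 of 9 for Psmb9 in CD4+ C1 (adjusted p up to 0.240 in edgeR), where CSA 5 mg/kg pool 3 and CSA 50 mg/kg pool 1 were the 2 pools it held without, and in 4 of 9 for Psme2 in CD8+ C1 (up to 0.295), where it was lost without saline pools 2 or 3, CSA 5 mg/kg pool 2, or CSA 50 mg/kg pools 2 or 3. These last 2 calls also missed the threshold in DESeq2 (adjusted p = 0.139 and 0.0782), and the other 2 passed. Psmb8 did not pass the test in C1 (0.074, adjusted p = 0.426, in CD4+ and -0.012, adjusted p = 0.920, in CD8+ T cells), nor did Psmb10 (-0.19, adjusted p = 0.169 and 0.058, adjusted p = 0.668). At 5 mg/kg, tested in edgeR under TMM scaling only, Psmb10 (0.31, adjusted p = 0.0330) and Psme1 (0.24, adjusted p = 0.0393) were higher in CD8+ C1. There 247 of 7011 genes were higher. Psmb8, Psmb9 and Psme2 did not pass there, and none of these genes passed in CD4+ C1 at 5 mg/kg. Psme2 was also lower in CD4+ C2 (-0.27 ± 0.078, SE, adjusted p = 0.00723) and C3 (-0.25 ± 0.066, SE, adjusted p = 0.00779), the first of them lost without saline pool 1 or CSA 50 mg/kg pool 3 (adjusted p up to 0.0808). Psma6, higher at 50 mg/kg over all CD4+ T cells under TMM scaling, was lower than saline under all 3 scalings in CD4+ C2 and C3. Psmd8 was higher in 6 of the 7 clusters under TMM scaling and missed the threshold in CD4+ C3 (0.12, adjusted p = 0.383). It was higher under all 3 scalings in CD4+ C0 and in CD8+ C0, C1 and C2, but not in CD4+ C1 or C2.

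**Figure D4:**
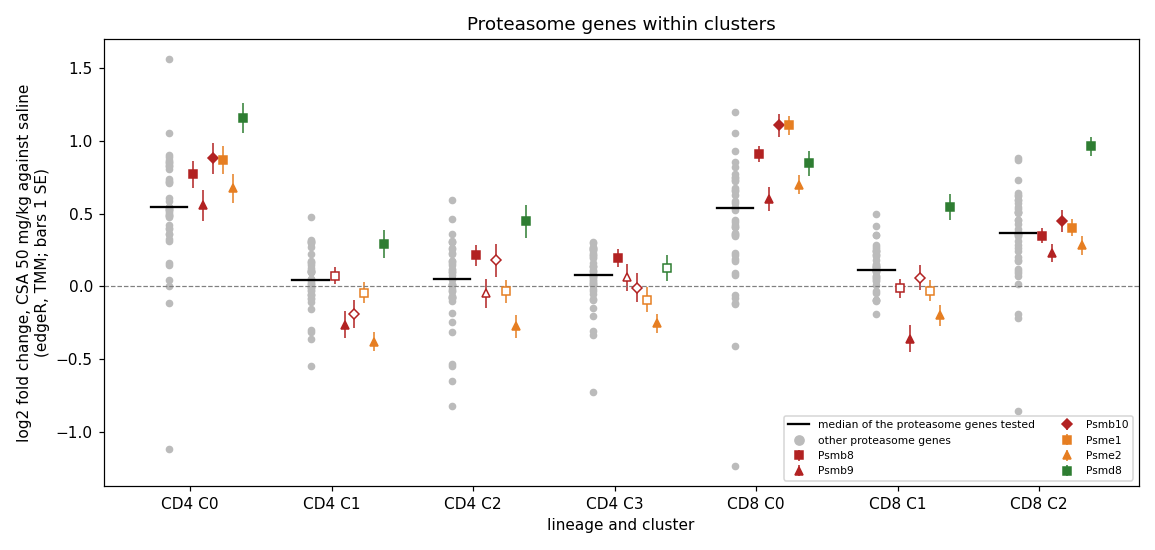
Log2 fold change at CSA 50 mg/kg against saline (vertical axis, bars 1 SE) within 7 clusters (horizontal axis); gray points are proteasome genes, black lines their medians, and colored symbols 6 named genes, filled where the adjusted p was under 0.05. The named genes lie above 0 in C0 of both lineages and in CD8+ C2, and Psmb9 and Psme2 lie below 0 in C1 of both.

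The level of the proteasome genes across clusters is a description, because clusters were made from the same counts. Their summed level ranged from 6455 ± 206 CPM in CD4+ C4 at 5 mg/kg to 12062 ± 197 in CD4+ C7 at 5 mg/kg (SD over 3 pools, library scaling). C7 expressed Ccl3 (954 against 56.4 CPM in the other clusters) and Ifng (284 against 48.2), and its summed level was 11084 ± 333 under saline, 12062 ± 197 under 5 mg/kg and 11340.5 ± 592 under 50 mg/kg. The balance of the 3 immunoproteasome subunits to the 3 constitutive ones they replace varied more than the sum. In C7 it was 1.58 ± 0.0623 under saline, 1.57 ± 0.0933 under 5 mg/kg and 2.02 ± 0.0658 under 50 mg/kg, the lowest mean of the CD4+ clusters in each group among those with at least 2 pools, though within the SD of the cycling C3 at 50 mg/kg. It was highest in C10, the Isg15hi cluster, at 4.16 ± 0.601 under saline, 5.45 ± 0.700 under 5 mg/kg and 4.49 ± 0.654 under 50 mg/kg, where Isg15 stood at 1608 against 91.2 and Ifit1 at 605 against 15.1 CPM in the other clusters. The naive-like C9, with Ccr7 at 507 against 56.7, had 3.10 ± 0.557 under saline, 4.44 ± 0.653 under 5 mg/kg and 3.06 ± 0.277 under 50 mg/kg. The SDs of C9 and C10 met at 5 mg/kg, and C4 at 50 mg/kg, with 45 cells in all, had a spread (4.25 ± 2.39) that reached across these values. Among CD8+ clusters the naive-like C7, with Ccr7 at 304 against 12.3, was the highest, at 3.49 ± 0.113 under saline, 3.88 ± 0.650 under 5 mg/kg and 3.47 ± 0.629 under 50 mg/kg, and C8, named exhausted and holding Ccl4 at 6338 against 229 and Ifng at 842 against 63.1 CPM in the other clusters, had the lowest mean, at 2.06 ± 0.187 under saline, 1.81 ± 0.213 under 5 mg/kg and 2.05 ± 0.155 under 50 mg/kg, within the SD of the cycling C2 with saline and at 50 mg/kg. The SDs of C7 and C8 did not meet in any group.

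**Figure D5:**
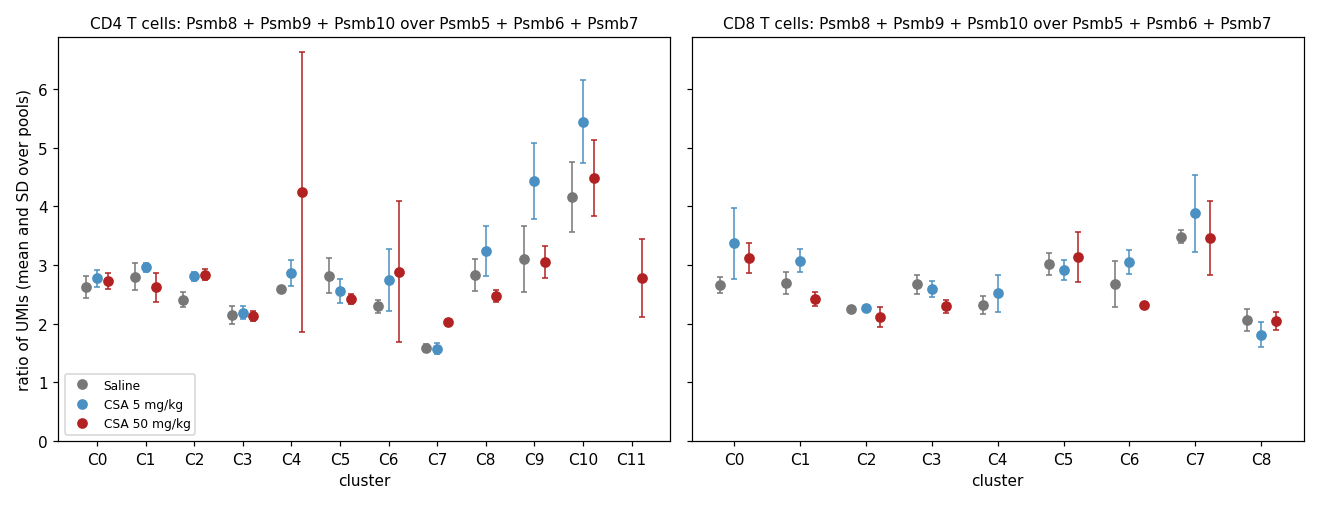
Ratio of the summed UMIs of Psmb8, Psmb9 and Psmb10 to those of Psmb5, Psmb6 and Psmb7 (vertical axis, from 0) by cluster (horizontal axis) in CD4+ (left) and CD8+ T cells (right), for clusters and groups with at least 2 pools of 10 cells. Points are means over pools and bars SDs (gray saline, blue CSA 5 mg/kg, red CSA 50 mg/kg); CD4+ C10 is highest and C7 lowest, and CD8+ C7 is highest and C8 lowest.

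Genes that work with the proteasome but lie outside the name rule were read from 4 lists. Of 9 partners and maturation factors tested, 5 were higher and 2 lower in CD4+ and 6 higher and 3 lower in CD8+ T cells at 50 mg/kg under TMM scaling, where 34.7% and 35.8% of all genes were higher and lower in CD4+ and 37.1% and 36.9% in CD8+. Under library scaling the partners gave 3 and 4 in CD4+ (15.1% and 59.0% of all genes) and 3 and 6 in CD8+ (15.6% and 62.7%). With length offsets they gave 5 and 2 in CD4+ (29.3% and 27.6%) and 4 and 2 in CD8+ (31.4% and 30.7%). Pomp, which guides core assembly and is used up by it, held 241, 252 and 242 CPM under saline, 418, 410.4 and 426 under 5 mg/kg and 507, 497 and 484 under 50 mg/kg in CD4+ T cells. Its CD8+ values were 221, 232 and 224 CPM under saline, 455, 449 and 444 under 5 mg/kg and 493, 493 and 494 under 50 mg/kg. It changed by 1.02 ± 0.039 (SE, adjusted p = 2.03e-15) and 1.13 ± 0.037 (SE, adjusted p = 1.14e-14) and stayed higher with length offsets (0.63, adjusted p = 1.44e-11 and 0.70, adjusted p = 2.00e-11). Sem1, a small lid subunit, changed by 1.17 ± 0.038 (SE, adjusted p = 1.61e-16) and 1.37 ± 0.041 (SE, adjusted p = 3.71e-15), and AI314180, the mouse name of the proteasome scaffold Ecpas, by -1.01 ± 0.076 (SE, adjusted p = 1.57e-10) and -1.26 ± 0.068 (SE, adjusted p = 1.17e-11). The values of Sem1 and AI314180 are under TMM scaling, and the part of transcript length in them was not tested.

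Of 7 tested regulators of proteasome gene expression, 3 were lower and 4 did not pass in CD4+ T cells at 50 mg/kg under TMM scaling (34.7% of all genes were higher and 35.8% lower). In CD8+ T cells 1 was higher and 2 lower (37.1% and 36.9%). Under library scaling 6 were lower in each lineage (15.1% of all genes higher and 59.0% lower in CD4+, 15.6% and 62.7% in CD8+). With length offsets 2 were higher and 3 lower in each (29.3% and 27.6% in CD4+, 31.4% and 30.7% in CD8+). Nfe2l1, the factor that raises proteasome genes when the proteasome is blocked, held 30.6, 36.2 and 32.4 CPM under saline, 22.5, 21.0 and 24.2 under 5 mg/kg and 14.3, 17.2 and 15.2 under 50 mg/kg in CD4+ T cells. Levels in CD8+ T cells were 24.4, 25.2 and 24.4 CPM under saline, 12.6, 16.5 and 17.6 under 5 mg/kg and 11.7, 15.0 and 9.91 under 50 mg/kg. It fell in both, with changes of -1.09 ± 0.10 (SE, adjusted p = 7.34e-09) and -1.03 ± 0.13 (SE, adjusted p = 7.60e-07), and Ddi2, the protease that activates it, changed by -0.90 ± 0.11 (SE, adjusted p = 3.45e-07) and -1.40 ± 0.11 (SE, adjusted p = 1.61e-09). These changes are under TMM scaling, and the part of transcript length in them was not tested. At 5 mg/kg 1 regulator was higher and 2 lower in each lineage under TMM scaling (26.1% and 25.6% of all genes in CD4+, 29.9% and 30.3% in CD8+). With length offsets 1 was higher and 0 lower in each (15.8% and 13.6%, 20.6% and 19.8%). Of 10 ubiquitin genes and shuttles, 5 were higher and 4 lower in both lineages under TMM scaling, against 3 and 6 in CD4+ and 3 and 7 in CD8+ under library scaling, and 5 and 2 and 4 and 3 with length offsets. The shares of all genes are those given for the regulators. Rps27a, which encodes ubiquitin fused to a ribosomal protein, rose in both under TMM scaling (1.02, adjusted p = 5.81e-17, in CD4+ and 1.36, adjusted p = 1.46e-15, in CD8+). The part of transcript length in the change of Rps27a was not tested.

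On the interferon side, 2 of 10 tested were higher and 6 lower in CD4+ T cells at 50 mg/kg under TMM scaling (34.7% and 35.8% of all genes). In CD8+ T cells 1 of 9 was higher and 6 lower (37.1% and 36.9%). Under library scaling 8 were lower in each lineage (59.0% of all genes in CD4+ and 62.7% in CD8+). Length offsets gave 1 higher and 7 lower in CD4+ (29.3% and 27.6%) and 1 and 6 in CD8+ (31.4% and 30.7%). Irf1, the factor that binds immunoproteasome promoters, held 218, 204 and 208 CPM under saline, 178, 159.5 and 173 under 5 mg/kg and 158, 145 and 133 under 50 mg/kg in CD4+ T cells. In CD8+ it held 194, 185 and 201 CPM under saline, 170.4, 169 and 171 under 5 mg/kg and 154, 144 and 122 under 50 mg/kg. Its changes were -0.53 ± 0.057 (SE, adjusted p = 4.10e-08) and -0.47 ± 0.063 (SE, adjusted p = 2.10e-06). Ifng held 123, 54.9 and 72.2 CPM under saline, 74.9, 62.6 and 66.4 under 5 mg/kg and 44.9, 49.6 and 50.8 under 50 mg/kg in CD4+ and 107, 86.9 and 115 CPM under saline, 66.6, 101 and 140.3 under 5 mg/kg and 53.1, 45.9 and 49.0 under 50 mg/kg in CD8+ T cells, and changed by -0.74 ± 0.18 (SE, adjusted p = 0.000863) and -1.06 ± 0.17 (SE, adjusted p = 1.58e-05). Nlrc5, which drives MHC class I genes, changed by -1.02 ± 0.083 (SE, adjusted p = 5.22e-10) and -0.89 ± 0.065 (SE, adjusted p = 8.03e-10). Irf1 and Ifng were lower under all 3 scalings in both lineages, where Psmb8 and Psmb10 were higher under all 3. The Nlrc5 change in CD8+ missed the threshold with length offsets (-0.11, adjusted p = 0.157).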

How the data were processed

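Donor CD4+ and CD8+ T cells of 3 captures (saline, CSA 5 mg/kg, CSA 50 mg/kg) were read as the authors deposited them: UMI counts per gene and cell, and per cell the lineage, hashtag pool, cluster, hashtag counts and the fraction of mitochondrial UMIs, whose median over a pool was between 1.56% and 1.83% in CD8+ and between 1.60% and 1.74% in CD4+ T cells. Per the labels the libraries were 10x 5′ and the processing notes name Cell Ranger, Seurat 3.0.0 and mm10; cell filters are not given in the sources used here, and cells were used as deposited, with no doublet caller. A cell with a second hashtag over 0.5 of its first counted as strongly double, and such cells were left out in an alternative.

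Counts were summed per pool, without TEa cells (between 3994968 and 7592334 UMIs for CD4+ and between 4392100 and 11454636 for CD8+ pools), filtered with filterByExpr, scaled by TMM and tested with edgeR's quasi-likelihood test (edgeR 4.0.16, limma 3.58.1, R 4.3.3), all 3 groups in 1 fit, with Benjamini-Hochberg adjustment over all genes tested and a threshold of 0.05. Lineages were compared in 18 sums with the pool as a block. Each cluster had its own fit, in which a pool entered with 10 or more of its cells. Alternatives were library size scaling, DESeq2 1.42.0, other sets of cells, no count filter, the hashtag number as a block, each pool left out, and, added after seeing the data, offsets from a loess curve (span 0.3) of each pool's log2 deviation on the principal transcript length (GENCODE vM21). The fits at 50 mg/kg were tested on drawn counts with 200 known changes. Of changes of 0.5 on the log2 scale, 95% were recovered over all CD4+ and 99% over all CD8+ T cells. For the lineage difference it was 88.5%, and in CD4+ C1 22.5%. Of changes of 1, 83% were recovered in CD4+ C1.

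Genes named in full were the catalytic subunits, Psme1, Psme2, and the extremes of each class at 50 mg/kg; other members named are those called under all 3 scalings, in the lineage tests or with a ubiquitin role, and genes of the 4 pathway lists. Members and lists were chosen with earlier results of these data known. Promoters are from RefSeq, GRCm38.p6. Some genes of the pathway and marker lists are counted but not reported here by name.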

Additional observations from a re-analysis of the deposited data

Results flagged for a closer look

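The change against saline differed between lineages for these members, by the lineage by dose term of the 18 sums with the pool as a block (edgeR, adjusted over all genes; CD8+ minus CD4+, log2 scale). At 5 mg/kg Psmg4 rose more in CD8+ T cells, by 0.34, a call kept in 4 of the 9 fits that leave out 1 pool. At 50 mg/kg Psma6 (0.33), Psmd8 (0.31), Psmb2 (0.19), Psme1 (0.17) and Psmb1 (0.14) rose more in CD8+ than in CD4+ T cells. The difference was negative for Psmd1 (-0.38), Psmd3 (-0.35), Psmc1 (-0.24) and Psmd2 (-0.19). Psma6, Psmd8, Psmd1, Psmd3 and Psmc1 passed under all 3 scalings. The number of cells, the depth and the B cell markers also moved differently in the lineages, and their part was not tested.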

How the results depend on the processing

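Counts below are members called higher, except that those for the lineages take both directions. Under library size scaling they were 19 (CD4+, 5 mg/kg), 20 (CD4+, 50 mg/kg), 15 (CD4+, 50 against 5), 22 (CD8+, 5), 20 (CD8+, 50), 5 (CD8+, 50 against 5) and 2 (lineage difference at 5 mg/kg, both smaller in CD8+), and within clusters 19, 0, 0 and 0 in CD4+ C0 to C3 and 11, 2 and 12 in CD8+ C0 to C2. With transcript length offsets they were 16, 22, 14, 18, 16, 9 and 0, and 12, 1, 2 and 1 and 10, 3 and 10. DESeq2 gave 3 and 2 for the lineage difference at 5 and 50 mg/kg, 7 for the lineages with saline, 0, 2 and 1 in CD4+ C1 to C3 and 3 in CD8+ C1. Over all genes it called 232 higher and 39 lower of 977 at 5 mg/kg, 419 and 311 of 10787 at 50 mg/kg and 1108 and 1045 of 11001 with saline. With 977 genes against 11001 in edgeR, its count at 5 mg/kg does not compare with that of edgeR. Within clusters it called higher 387 of 7035, 458 of 6848 and 455 of 7889 genes in CD4+ C1 to C3 and 557 of 7011 in CD8+ C1. Cells of 4000 to 8000 UMIs gave 4 (CD4+) and 9 (CD8+) for 50 against 5 mg/kg, and cells outside the cycling clusters 15 (CD4+). Shares of all genes for these sets of cells, and for the fits below that leave out a pool, are not given here. The cause was not tested.

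Leaving out 1 pool gave 38 to 40, 41 to 42 and 21 to 23 in CD4+ T cells (5, 50, 50 against 5), 38 to 40, 40 to 41 and 11 to 15 in CD8+, 0 to 4 and 4 to 10 for the lineage difference at 5 and 50 mg/kg, 10 to 16 for the lineages with saline, 32 to 38, 0 to 2, 4 to 5 and 1 to 5 in CD4+ C0 to C3, and 27 to 33, 2 to 6 and 34 to 36 in CD8+ C0 to C2. The lineage difference at 50 mg/kg fell to 5 without saline pool 1 and 4 without saline pool 2, and that at 5 mg/kg moved without any pool but CSA 50 pool 1. CD4+ C1 fell to 0 without saline pool 1 or 3 or CSA 50 pool 3 and to 1 without saline pool 2. CD4+ C3 fell to 1 without saline pool 2 or CSA 50 pool 1 and to 2 without saline pool 3 or CSA 50 pool 2, and CD8+ C1 to 2 without saline pool 2 and 3 without CSA 50 pool 2.

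Of the named genes at 50 mg/kg, library scaling turned the log2 change in CD4+ T cells of Psmd4 (-0.083), Psmd14 (-0.018), Psme2 (-0.039), Psma6 (-0.19), Psmd12 (-0.39), Psmf1 (-0.066) and Psmd1 (-0.37), and in CD8+ of Psmd4 (-0.052), Psmd14 (-0.22), Psme3 (-0.52), Psmb9 (-0.085), Psmb7 (-0.049), Psmc4 (-0.089), Psmf1 (-0.27), Psma1 (-0.063) and Psmc1 (-0.23). Length offsets turned Psmd4 (-0.12), Psmb6 (-0.011), Psmb7 (-0.041), Psme2 (-0.23), Psma6 (-0.34), Psmd12 (-0.22) and Psma1 (-0.0062) in CD4+, and Psmd4 (-0.068), Psmd14 (-0.14), Psmb9 (-0.091), Psmb5 (-0.039), Psmb6 (-0.12), Psmb7 (-0.16), Psme2 (-0.19), Psma6 (-0.11), Psmc4 (-0.052), Psma1 (-0.15) and Psmc1 (-0.12) in CD8+ T cells. Psmd1 in CD4+ T cells was -0.25 among cells of 4000 to 8000 UMIs.

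Same-numbered pools did not deviate together (correlations between -0.085 and 0.071), so the numbers do not pair them; with the hashtag number as a replicate block the counts were 40, 41 and 23 in CD4+ and 40, 40 and 14 in CD8+ T cells. TEa cells were added for CD4+ only, since the CD8+ table marks none. Depth limits which genes can be tested: 6848 to 9386 passed the filter on low counts within clusters, against 10568 and 10841 over all CD4+ and CD8+ T cells.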
